A study of Rattus norvegicus with 3 samples.

Results

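Genes for S100 proteins, annexins, clade B serpins and secreted antimicrobial proteins were examined in FRSK cells, a rat keratinocyte line from fetal skin. They were chosen by symbol: every named gene beginning with S100a, S100b, S100g or S100p, with Anxa, Serpinb, Defb or Wfdc and a digit, plus Slpi, Lcn2 and Camp. This rule found 89 of the 15037 named genes on the array: 15 S100 genes, 11 annexins, 13 clade B serpins, 35 β-defensins, 12 genes of the whey acidic protein (WAP) group with Slpi among them, Lcn2, Camp and S100pbp. S100pbp encodes a protein that binds the human S100P protein and is no S100 protein itself. The series compared 3 cultures, with 1 whole-transcript array each: one was given Met-enkephalin (Met-ENK) at 100 nM for 24 h, one the endorphin fragment β-END(1-9) at the same dose and for the same time, and one was left unstimulated as the control. All were grown in the same serum-containing medium. Met-ENK is an opioid peptide, and β-END(1-9) begins with the same residues and is longer. With 1 array per group no spread between cultures can be estimated, so no test was run and each difference is one between single arrays.

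S100 proteins are small calcium-binding proteins that act inside the cell on membranes, the cytoskeleton and other proteins, and some are released as signals in inflamed skin. Annexins bind phospholipid membranes when calcium rises and take part in membrane repair, vesicle traffic and the control of inflammation. Several annexins carry an S100 protein as a partner, the best known pair being annexin A2 with S100A10. Clade B serpins are mostly intracellular inhibitors of serine or cysteine proteases that guard epithelial cells against proteases of their own or of immune cells. β-defensins, cathelicidin, lipocalin 2 and WAP proteins such as Slpi belong to the antimicrobial defence of epithelia.

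Values are log2 signals of 1 probe set per gene, and signals of different probe sets do not rank genes by RNA amount. A gene was called expressed when its mean over the 3 arrays was over 7.6, just above the highest of the 23 background probe sets of the array (2.51 to 7.57). Genes were counted as higher or lower when 2 arrays were 1.5-fold or more apart, which is 0.585 in log2. Of the 89 genes, 26 were expressed, against 6243 of all 15037 named genes, and the other 63 stayed at background level. Of the markers that define basal keratinocytes, 10 of 10 measured were expressed (Krt14, the basal keratin, at 16.61 with Met-ENK, 16.63 with β-END(1-9) and 16.70 in control), against 1 of 8 markers of differentiated keratinocytes (Tgm1). Of the markers of other cells, 3 of 10 for fibroblasts, 1 of 6 for melanocytes, 1 of 10 for immune cells and 0 of 7 for endothelium were expressed.

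The expressed genes were unevenly spread over the families. The counts were 9 of 11 annexins, 8 of 13 clade B serpins and 5 of 15 S100 genes, with Lcn2 and S100pbp beside them. Of the 35 β-defensins 2 were over the level, and of the 12 WAP genes 0 were; Camp was at background. The genes next to the limit were Wfdc18 (mean 7.58), Wfdc11 (7.44) and S100a1 (7.17) below it, followed by Defb13 (7.06), and Defb20 (7.62), Defb18 (7.88) and S100a4 (9.55) above it. The 2 defensins therefore lay at the edge of background, and the other 24 expressed genes were over 7.6 on each array.

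**Figure D1:**
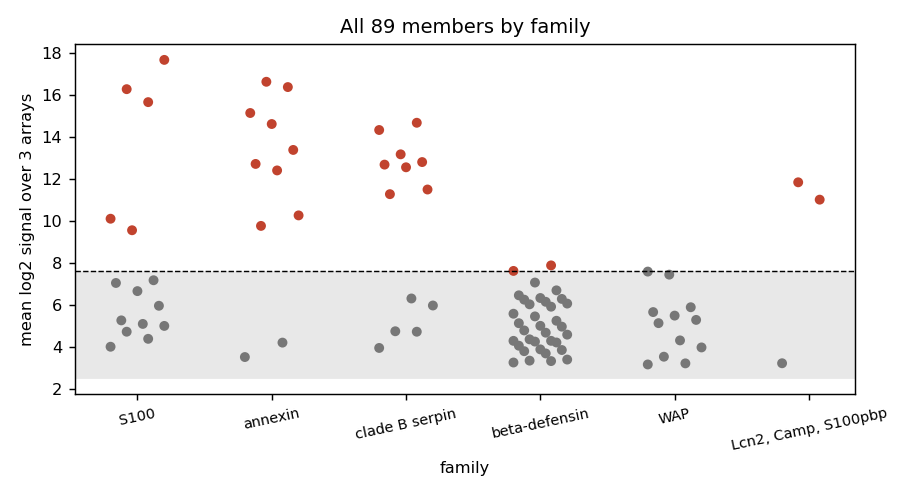
Mean log2 signal over the 3 arrays (y axis) of all 89 genes by family (x axis), 1 point per gene, with the range of the background probe sets shaded and the level of 7.6 dashed. Red points are the 26 expressed genes; the S100 genes, annexins and clade B serpins split into an upper and a lower group, and 33 of 35 β-defensins and 12 of 12 WAP genes lie below the line.

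Expressed genes and genes at background were mixed along the chromosomes, where only the order among the 89 genes was examined, not their distances. In the GRCr8 assembly 13 of the 15 S100 genes lie on chromosome 2. S100a1 and S100a13, the first of them, were at background. The 2 kinds then alternate: S100a16 was expressed, the next member S100a3 at background, S100a4 expressed, S100a5 at background and S100a6 expressed. The following genes S100a7a, S100a8, S100a9 and S100a7l2 were all at background, and S100a11 and S100a10 beyond them were expressed. Of the clade B serpins, 8 lie on chromosome 13 in the order Serpinb5, Serpinb12, Serpinb13, Serpinb11, Serpinb7, Serpinb2, Serpinb10 and Serpinb8. The stretch from Serpinb12 to Serpinb11 was at background, while Serpinb5 before it and the 4 genes after it were expressed. The other 5 serpins lie on chromosome 17, where Serpinb6a, Serpinb9 and Serpinb1a were expressed and Serpinb9d and Serpinb6b were not. The annexins are scattered over 9 chromosomes.

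RefSeq promoter sequences (GRCr8) were matched for 62 of the 89 genes and for 22 of the 26 expressed ones. The 250 bases before the gene start are shown for S100a16, S100a6 and Anxa3, which were at least 1.5-fold lower with Met-ENK. S100a10, also at least 1.5-fold lower, had no matched promoter. Sequences are also shown for S100a4, whose lower signal fell short of 1.5-fold, and for S100a11, which differed little. Anxa2 and Serpinb7 are shown because they hold an AP-1 motif. Capitals mark 3 short motifs searched on both strands: TATAA, the GC box GGGCGG and the AP-1 motif TGANTCA.
S100a16 (chr2:178313736-178313985, plus strand): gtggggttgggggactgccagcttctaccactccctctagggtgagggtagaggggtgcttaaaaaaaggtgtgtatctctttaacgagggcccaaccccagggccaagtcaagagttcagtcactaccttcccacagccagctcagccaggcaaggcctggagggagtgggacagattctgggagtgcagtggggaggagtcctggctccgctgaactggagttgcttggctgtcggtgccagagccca
S100a6 (chr2:178398287-178398536, plus strand): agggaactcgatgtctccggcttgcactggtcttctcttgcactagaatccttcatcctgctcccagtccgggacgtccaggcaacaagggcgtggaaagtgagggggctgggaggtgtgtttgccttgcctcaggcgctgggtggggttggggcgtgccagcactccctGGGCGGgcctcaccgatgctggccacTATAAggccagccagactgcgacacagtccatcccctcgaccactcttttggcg
S100a4 (chr2:178388279-178388528, plus strand): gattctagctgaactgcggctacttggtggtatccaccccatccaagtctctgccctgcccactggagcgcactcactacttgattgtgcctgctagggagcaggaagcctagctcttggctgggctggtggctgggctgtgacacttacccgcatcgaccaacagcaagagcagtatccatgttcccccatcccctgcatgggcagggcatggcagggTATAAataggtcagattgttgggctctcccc
S100a11 (chr2:181874882-181875131, plus strand): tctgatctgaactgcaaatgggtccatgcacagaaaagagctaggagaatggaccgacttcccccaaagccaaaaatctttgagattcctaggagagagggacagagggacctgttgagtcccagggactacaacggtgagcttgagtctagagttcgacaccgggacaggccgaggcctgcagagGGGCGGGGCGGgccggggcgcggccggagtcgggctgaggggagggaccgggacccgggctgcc
Anxa3 (chr14:13085598-13085847, minus strand): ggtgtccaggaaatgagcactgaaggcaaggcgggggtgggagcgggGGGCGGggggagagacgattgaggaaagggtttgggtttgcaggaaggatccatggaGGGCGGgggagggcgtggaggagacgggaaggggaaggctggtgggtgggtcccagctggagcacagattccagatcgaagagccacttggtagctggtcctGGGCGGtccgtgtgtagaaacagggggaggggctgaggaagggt
Anxa2 (chr8:78986002-78986251, plus strand): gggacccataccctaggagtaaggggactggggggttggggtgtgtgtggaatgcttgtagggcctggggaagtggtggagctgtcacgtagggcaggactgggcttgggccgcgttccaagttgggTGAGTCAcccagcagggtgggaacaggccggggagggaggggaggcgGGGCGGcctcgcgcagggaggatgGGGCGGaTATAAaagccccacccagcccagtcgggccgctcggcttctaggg
Serpinb7 (chr13:23910056-23910305, plus strand): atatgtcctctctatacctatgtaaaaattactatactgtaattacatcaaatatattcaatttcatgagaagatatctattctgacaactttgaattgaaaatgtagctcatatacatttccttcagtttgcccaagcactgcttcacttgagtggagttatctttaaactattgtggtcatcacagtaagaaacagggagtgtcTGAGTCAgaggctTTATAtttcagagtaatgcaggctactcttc
No motif was present in all of S100a16, S100a4 and S100a6. S100a16 held 0 of the 3 motifs, S100a4 held TATAA, and S100a6 held TATAA and the GC box, so S100a4 and S100a6 shared TATAA. Over the 22 expressed genes, TATAA was found in 9 promoters (40.9%), the GC box in 9 (40.9%) and the AP-1 motif in 5 (22.7%), which were those of Anxa2, Serpinb2, Serpinb5, Serpinb7 and Defb18. Of all 27457 promoters of this length, 24.1% held TATAA, 32.4% the GC box and 6.36% the AP-1 motif. Over the 62 genes with a matched promoter, expressed or at background, the shares were 33.9%, 24.2% and 14.5%. The motifs did not overlap one another in the promoters shown, except that the 2 GC boxes of S100a11 share a base. A match describes letters only and is no shown binding site.

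Expressed S100 genes were lower on the Met-ENK array. Of the 5 expressed S100 genes, 5 had a lower signal with Met-ENK than in control (4 of 5 after quantile normalization or with the trend along gene span removed, when S100a11 was 0.01 or 0.07 higher), and 3 of them (S100a16, S100a6 and S100a10) were at least 1.5-fold lower, with a median difference of -0.66. The median was -0.30 over the S100 genes at or above the median level of named genes, and 0 over all 15 S100 genes. Over all 6243 expressed genes 5.81% were at least 1.5-fold lower (363 genes) and 0.352% at least 1.5-fold higher (22 genes), and the median was 0. By direction alone, 2857 of the 6243 had a lower signal with Met-ENK, 2094 a higher and 1292 an equal one. S100a16, a widely expressed S100 protein, had 9.70 with Met-ENK, 10.08 with β-END(1-9) and 10.53 in control. It was 0.84 lower with Met-ENK and 0.45 lower with β-END(1-9), the lowest Met-ENK difference of all 26 genes. S100a6 (calcyclin), found in proliferating cells and a binder of several annexins, had 15.86 with Met-ENK, 16.38 with β-END(1-9) and 16.58 in control. Its differences from control were -0.72 with Met-ENK and -0.20 with β-END(1-9). S100a10, which binds annexin A2 and needs no calcium to do so, had 15.24 with Met-ENK, 15.82 with β-END(1-9) and 15.90 in control. The Met-ENK signal stood apart here, at -0.66 from control, and the β-END(1-9) signal was close to control, at -0.08, a sign that turned after quantile normalization and after removal of the trend along signal level. S100a4, a regulator of non-muscle myosin and cell motility, had 9.30 with Met-ENK, 9.53 with β-END(1-9) and 9.83 in control, and at -0.54 with Met-ENK it fell short of 1.5-fold. S100a11, an S100 protein abundant in keratinocytes, had 17.61 with Met-ENK, 17.72 with β-END(1-9) and 17.67 in control, so that its 3 signals lay within 0.11.

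In 4 of the 5 S100 genes the Met-ENK signal was the lowest, the β-END(1-9) signal intermediate and the control signal the highest, without S100a10 in this order after quantile normalization or removal of the trend along signal level. Among all expressed genes 17.4% stood in this order. With β-END(1-9) none of the S100 genes was past 1.5-fold from control (0 of 5, beside 2.02% of all expressed genes). The median was -0.20, beside -0.04 for all expressed genes. The control array enters each comparison, so the 2 sets of differences are not separate measurements.

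**Figure D2:**
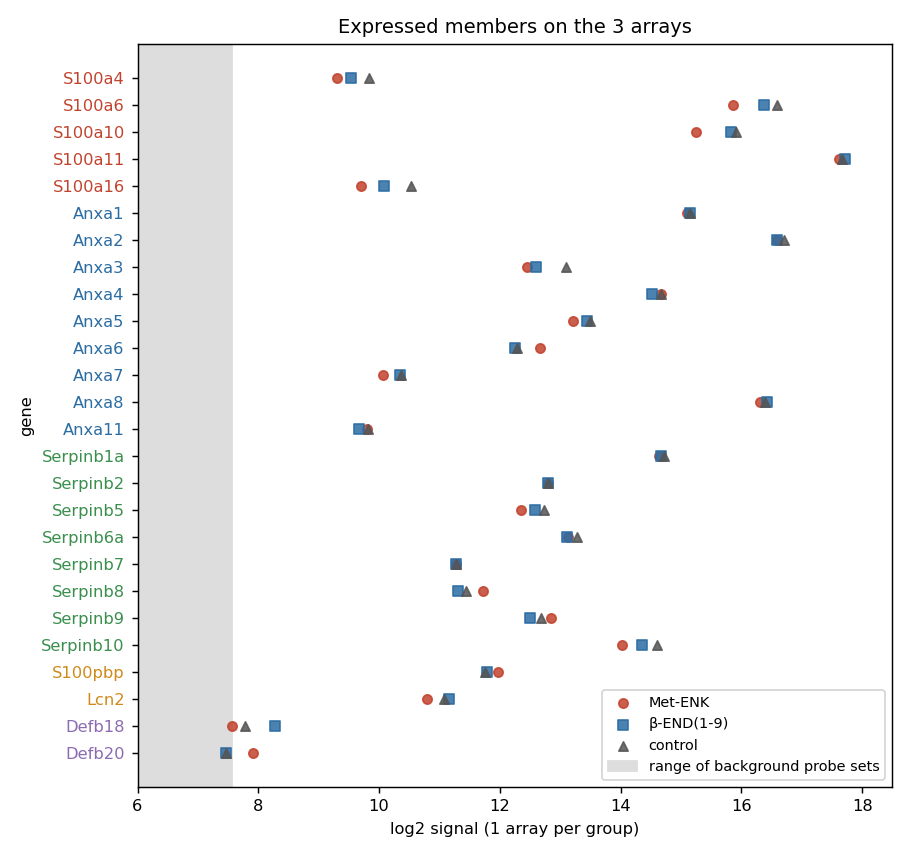
Log2 signal (x axis) of the 26 expressed genes (y axis, coloured by family) on the Met-ENK (circle), β-END(1-9) (square) and control (triangle) arrays, with the background range shaded. The circles of S100a16, S100a6, S100a10 and S100a4 lie left of the other symbols, whereas Serpinb2 and Serpinb7 show 1 position for all arrays.

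The lower S100 genes are short genes. The 5 span 1.58 to 8.65 kb, against a median of 24.2 kb over the expressed genes, and all lie in the shortest quintile of expressed genes by span (9 of the 26 genes do). In that quintile 14.9% of all genes were at least 1.5-fold lower with Met-ENK, against 1.12% in the longest quintile. With the trend along span removed, S100a16 was 0.71 lower, S100a10 0.57 lower and S100a6 0.52 lower, and the S100 median was -0.52. S100a10 and S100a6 then fell short of 1.5-fold. After a further quantile normalization of the arrays they also fell short (-0.48 and -0.58), whereas S100a16 stayed past it at -0.77. That setting changed the counts over all expressed genes to 263 lower and 55 higher, so that 82.7% of them were lower against 94.3% as deposited.

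**Figure D3:**
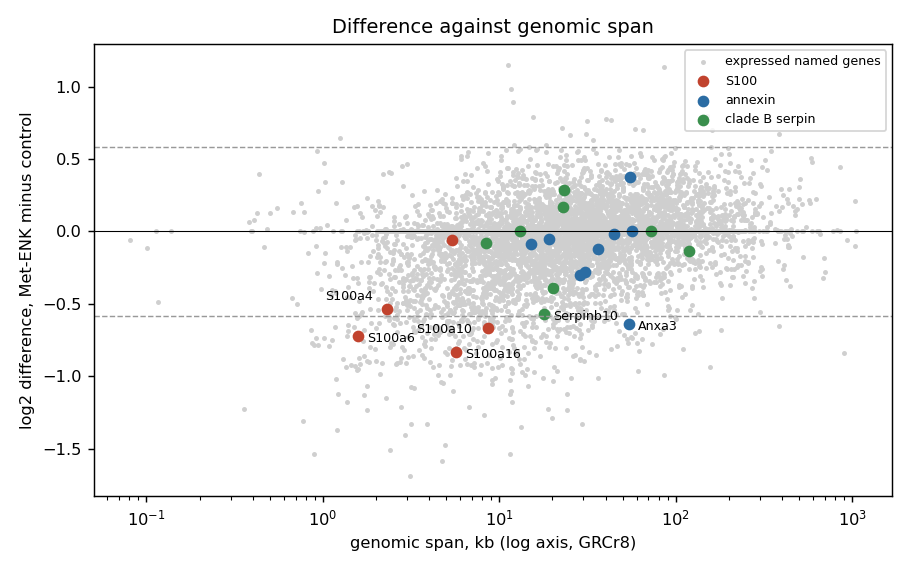
Log2 difference of Met-ENK minus control (y axis) against genomic span in kb (x axis, log scale) for the expressed named genes (grey) and the expressed S100 genes, annexins and clade B serpins (coloured), with 1.5-fold dashed. The S100 genes lie at the left, at 8.65 kb or less, where lower grey points are also more frequent, and Anxa3 is low at 54.0 kb.

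A marker of other cells was also lower with Met-ENK. Vim, the mesenchymal intermediate filament gene that cultured epithelial cells also express, had 13.90 with Met-ENK, 14.24 with β-END(1-9) and 14.57 in control. It spans 8.49 kb and lies, like the S100 genes, in the shortest quintile, where 14.9% of genes were at least 1.5-fold lower with Met-ENK. The summed signal of the 10 fibroblast markers, most of it from Vim, was 13.98 with Met-ENK, 14.31 with β-END(1-9) and 14.62 in control on the log2 scale. The collagen genes Col1a1 and Col3a1 differed by -0.06 and 0 with Met-ENK, and the other 7 markers, Pdgfra, Dcn and Lum among them, were at background on each array. The part of such cells in the S100 values was not tested, and in these bulk cultures fewer cells of a type and less RNA per cell cannot be told apart.

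The remaining 10 S100 genes were at background, between 3.84 and 7.48 on every array. They include S100a8 (4.72 on each array) and S100a9 (4.70 with Met-ENK and 4.22 with β-END(1-9) and in control), which form calprotectin in inflamed skin, and S100a7a, a rat gene of the psoriasin group (6.94 with Met-ENK, 7.25 with β-END(1-9) and 6.94 in control). S100a5 was 0.74 higher with either peptide, at 5.34 on both peptide arrays against 4.60 in control, all within the background range. The signals of S100a13, S100a3, S100a8 and S100b were exactly equal on the 3 arrays. S100pbp had 11.97 with Met-ENK, 11.78 with β-END(1-9) and 11.76 in control.

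Annexins differed less, with Anxa3 apart from the others. They are also longer genes: the expressed annexins span 15.1 to 56.8 kb (median 36.4 kb), the expressed S100 genes 8.65 kb or less. With the trend along span removed, the medians for Met-ENK against control were -0.04 for annexins and -0.52 for S100 genes. Of the 9 expressed annexins, 7 were lower with Met-ENK than in control, 1 was higher and 1 equal (4 lower and 5 higher after quantile normalization), with 1 past 1.5-fold and a median of -0.08. Among all 6243 expressed genes 2857 had a lower signal with Met-ENK, 2094 a higher and 1292 an equal one, and 6.17% were past 1.5-fold in either direction. Anxa3, a membrane-binding annexin, had 12.45 with Met-ENK, 12.60 with β-END(1-9) and 13.09 in control. It was 0.64 lower with Met-ENK and 0.48 lower with β-END(1-9), so that both peptide arrays lay below control. It stayed past 1.5-fold with Met-ENK after quantile normalization (-0.60) and with the trend along span removed (-0.66). Anxa6, an annexin of membranes and vesicles, was the one that was higher with Met-ENK, at 12.66 against 12.26 with β-END(1-9) and 12.29 in control, a difference of 0.38 that fell short of 1.5-fold.

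Anxa2, the membrane-binding partner of S100a10, had 16.58 with Met-ENK, 16.59 with β-END(1-9) and 16.70 in control. Its difference with Met-ENK was -0.12, while that of S100a10 was -0.66, so the differences of this pair were unequal. Anxa1, the anti-inflammatory annexin and partner of S100A11, had 15.10 with Met-ENK and 15.15 both with β-END(1-9) and in control. S100a11 and Anxa1 thus both stayed within 0.11 over the arrays. Anxa8, an annexin of stratified epithelia, had 16.31 with Met-ENK, 16.42 with β-END(1-9) and 16.39 in control. Anxa5, known as a probe for exposed phosphatidylserine, had 13.21 with Met-ENK, 13.44 with β-END(1-9) and 13.49 in control, and Anxa7 (synexin) had 10.07 with Met-ENK, 10.35 with β-END(1-9) and 10.37 in control. In both the Met-ENK signal was the low one, by 0.28 and 0.30 from control. Anxa4 had 14.66 with Met-ENK, 14.52 with β-END(1-9) and 14.66 in control and Anxa11 had 9.80 with Met-ENK, 9.67 with β-END(1-9) and 9.81 in control. In both β-END(1-9) was the low one, by 0.14 from control. With β-END(1-9) 7 of the 9 annexins were lower than in control, 1 was higher and 1 equal (3 lower, 5 higher and 1 equal after quantile normalization), 0 were past 1.5-fold and the median was -0.05. Lower signals with β-END(1-9) were common in the whole array: 3674 of the 6243 expressed genes were lower, 1082 higher and 1487 equal, and 2.02% were past 1.5-fold. Anxa10 and Anxa13, genes of gastric and intestinal epithelium, were at background with equal signals on each array (4.20 and 3.51).

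**Figure D4:**
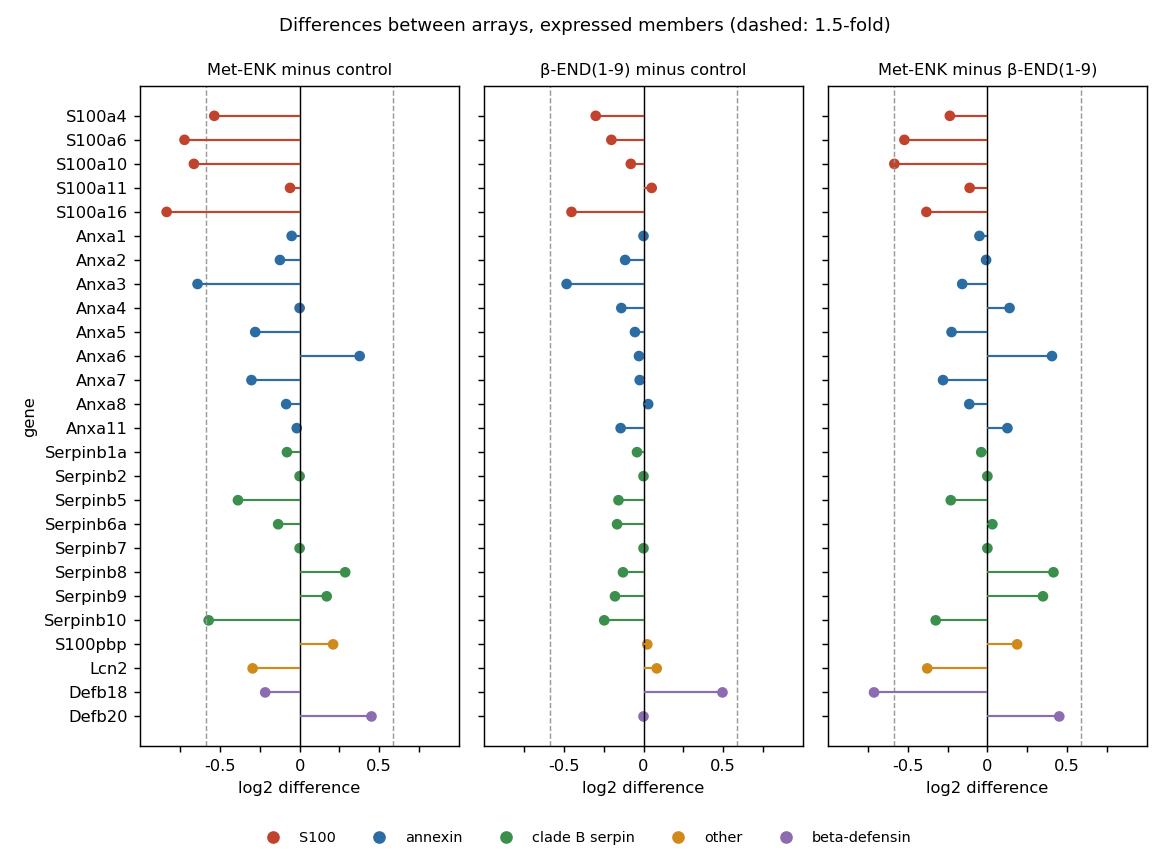
Log2 differences (x axis) of the 26 expressed genes (y axis) for Met-ENK minus control, β-END(1-9) minus control and Met-ENK minus β-END(1-9), coloured by family, with 1.5-fold dashed. Against control, S100a16, S100a6, S100a10 and Anxa3 are past the line with Met-ENK and 0 genes are past it with β-END(1-9).

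Clade B serpins had 0 of 8 expressed members past 1.5-fold in any comparison. The shares of all expressed genes past it were 6.17% for Met-ENK against control, 2.02% for β-END(1-9) against control and 4% between the peptides. For 8 genes a count of 0 lies near these shares. With Met-ENK 4 serpins were lower than in control, 2 higher and 2 equal, with a median of -0.04. With β-END(1-9) 6 serpins were lower and 2 equal, with a median of -0.14. Of all 6243 expressed genes, 2857 had a lower and 2094 a higher signal with Met-ENK. With β-END(1-9) 3674 of them had a lower and 1082 a higher one, so lower signals were common in the whole array. After quantile normalization the serpin counts were 3 lower, 4 higher and 1 equal with Met-ENK, and 5 lower and 3 higher with β-END(1-9). The nearest to the threshold was Serpinb10, known in human as a protease inhibitor of blood and epithelial cells, with 14.03 with Met-ENK, 14.35 with β-END(1-9) and 14.60 in control. Its difference with Met-ENK was -0.57. It went past 1.5-fold in 1 alternative, with each array centred on its median (-0.60). Serpinb5 (maspin), an epithelial serpin without protease inhibition that is known as a suppressor of tumour cell motility, had 12.35 with Met-ENK, 12.58 with β-END(1-9) and 12.73 in control, a difference of -0.39 with Met-ENK. Serpinb8 (11.73 with Met-ENK, 11.31 with β-END(1-9) and 11.44 in control), known in human to inhibit furin, and Serpinb9 (12.85 with Met-ENK, 12.50 with β-END(1-9) and 12.68 in control), whose human form inhibits granzyme B, were higher with Met-ENK than in control by 0.29 and 0.17. Both were lower with β-END(1-9), at -0.13 and -0.18. These signs held in each of the 3 other scalings and with the trend along gene span removed.

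Serpinb1a, an inhibitor of neutrophil proteases, had 14.63 with Met-ENK, 14.67 with β-END(1-9) and 14.71 in control, and Serpinb6a, whose human form inhibits cathepsin G, had 13.13 with Met-ENK, 13.10 with β-END(1-9) and 13.27 in control. Serpinb2 (plasminogen activator inhibitor type 2), which is induced in stressed keratinocytes, had exactly 12.80 on each array, and Serpinb7 exactly 11.27. Among the expressed genes 11.2% had 1 value on all 3 arrays, so exact equality is common in these deposited values. The 5 serpins at background were Serpinb6b, Serpinb9d, Serpinb11, Serpinb12 and Serpinb13, between 3.95 and 6.42 on every array. Serpinb6b and Serpinb9d are close relatives of Serpinb6a and Serpinb9, and whether their probes separate such copies was not tested.

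Lcn2 (lipocalin 2), which binds the iron carriers of bacteria, was the clearly expressed gene of the antimicrobial group, with 10.79 with Met-ENK, 11.16 with β-END(1-9) and 11.08 in control. It was 0.30 lower with Met-ENK and 0.08 higher with β-END(1-9), both short of 1.5-fold. Defb18 had 7.57 with Met-ENK, 8.28 with β-END(1-9) and 7.79 in control, and Defb20 had 7.92 with Met-ENK, 7.47 with β-END(1-9) and 7.47 in control. Camp, the cathelicidin gene (3.01 with Met-ENK, 3.53 with β-END(1-9) and 3.12 in control), and Slpi, an inhibitor of neutrophil elastase (5.32 with Met-ENK, 5.11 with β-END(1-9) and 5.42 in control), were at background. The 33 β-defensins at background lay between 3.21 and 7.32, among them Defb1 (3.32 on each array), Defb4 (5.62 with Met-ENK, 5.56 with β-END(1-9) and in control) and Defb14 (3.83 with Met-ENK, 5.08 with β-END(1-9) and 3.83 in control). The 12 WAP genes lay between 3.01 and 7.74, where Wfdc18 was over the highest background probe set on the Met-ENK array (7.74).

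Background genes also passed 1.5-fold, at signals that cannot be separated from background by level. Against control with Met-ENK, 3 of the 63 were higher (Defb43 by 0.99, S100a5 by 0.74 and Wfdc10a by 0.64) and 2 lower (Wfdc2 at -0.96 and Defb22 at -0.69). In this comparison 4.84% of all 8794 named genes at or below the level were higher and 3.07% lower. Against control with β-END(1-9), 7 of the 63 were higher and 1 lower, where 4.37% of such genes were higher and 2.08% lower. The 7 were Defb14 (1.25), Defb23 (1.05), Defb43 (0.99), Defb10 (0.84), S100a5 (0.74), Defb9 (0.62) and Defb41 (0.60), and the lower one was Wfdc2 (-0.88). Of these, 6 are β-defensins, whose signals on the β-END(1-9) array ran from 4.21 (Defb43) to 7.08 (Defb41), below the highest background probe set. For Defb43 and S100a5 the 2 peptide arrays had equal signals, so each gives 1 value against control and not 2.

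The peptides, given at 1 dose and time, were set against each other in 1 pair of arrays. S100a10 was 0.58 lower with Met-ENK than with β-END(1-9), just short of 1.5-fold, S100a6 was 0.52 lower, S100a16 0.38 lower and Lcn2 0.38 lower. On the other side Serpinb8 was 0.42 higher with Met-ENK, Anxa6 0.41 higher and Serpinb9 0.35 higher. Of the 26 expressed genes 0 were at least 1.5-fold higher and 1 was lower, Defb18 (-0.71), whose signals lie at the edge of background. Over all expressed genes 1.63% were higher and 2.37% lower in this comparison, 4% together. Of these 59.2% were lower, and 69.2% with the trend along signal level removed. The 5 S100 genes were all lower with Met-ENK, a direction that held in the 3 other scalings and with the span trend removed. Their median was -0.38 as deposited, and 0 over all 15 S100 genes. Of the 6243 expressed genes 2006 had a lower signal with Met-ENK than with β-END(1-9), 2956 a higher and 1281 an equal one. Annexins (median -0.05, 3 higher and 6 lower) held genes in both directions. So did clade B serpins, with a median of 0, 3 higher, 3 lower and 2 equal, and with 2 higher and 6 lower after quantile normalization. With 1 array per peptide no interval can be given for these differences, and small ones do not show that the peptides act alike. The number of S100 genes past 1.5-fold became 1 (S100a10, -0.63) when the trend along signal level was removed. Among background genes 0 were higher and 5 lower with Met-ENK than with β-END(1-9) (Defb14 at -1.25, Defb10 at -0.84, Defb23 at -0.77, Wfdc21 at -0.70 and Defb30 at -0.60), where 3.13% of all genes at or below the level were higher and 3.54% lower.

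**Figure D5:**
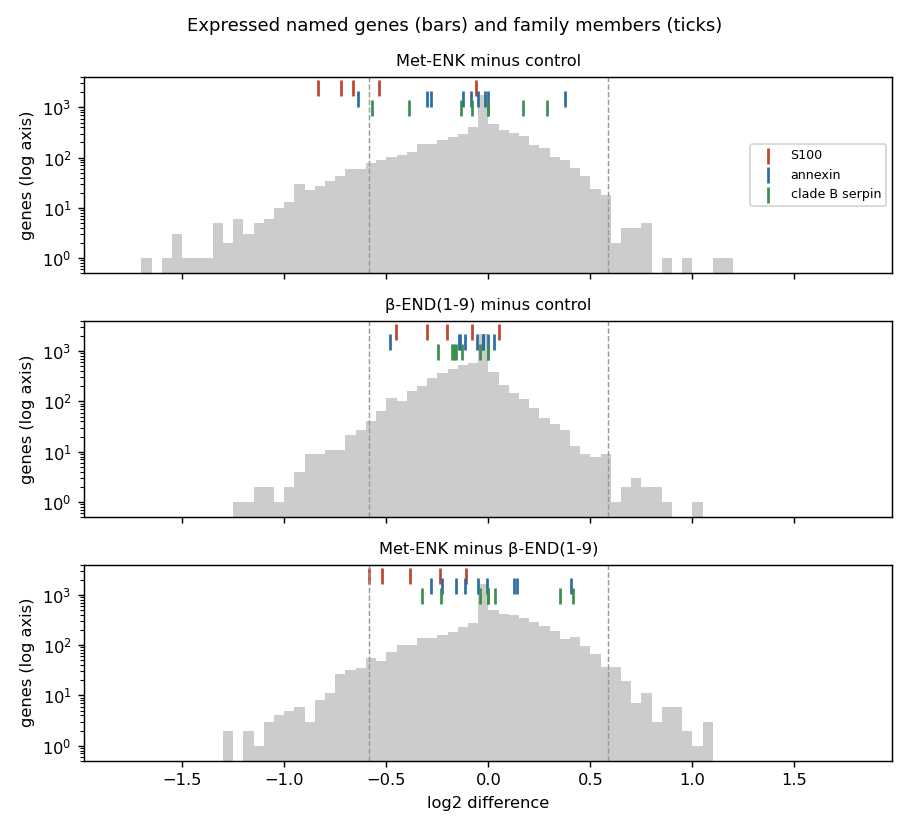
Distribution of log2 differences (x axis) of the 6243 expressed named genes (grey bars, number of genes on a log axis) in the 3 comparisons, with ticks for the expressed S100 genes, annexins and clade B serpins and 1.5-fold dashed. As deposited, the S100 ticks lie at or left of -0.06 for Met-ENK minus control and between -0.45 and 0.05 for β-END(1-9) minus control.

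Genes around these families gave the setting for the values. Against control, the 26 expressed genes together had a median difference of -0.10 for Met-ENK, where all expressed genes had 0. At 1.5-fold 4 of them were lower and 0 higher, beside 6.17% of all expressed genes past it in either direction. For β-END(1-9) their median was -0.07, where all expressed genes had -0.04, and 0 were past 1.5-fold. Of all expressed genes 1.81% were lower and 0.208% higher in that comparison, 2.02% together, so that 89.7% of those past it were lower, against 67.7% after quantile normalization, 78.1% with the trend along signal level removed and 72.7% with the trend along span removed. Of 22 listed partners of annexins and S100 proteins 19 were measured and 11 expressed, and of the expressed ones 1 was past 1.5-fold with Met-ENK: Pdcd6 (ALG-2), a calcium-binding protein that associates with annexins, with 10.49 with Met-ENK, 10.83 with β-END(1-9) and 11.30 in control. Of the 8 at or below the level 1 was also past it, Plgrkt, a plasminogen receptor, which had 6.76 with Met-ENK, 7.93 with β-END(1-9) and 7.97 in control. Its difference of -1.21 was further from 0 than that of Pdcd6 (-0.81), and its mean of 7.55 lay just below the level. Against control with Met-ENK, 3.07% of all genes at or below the level were at least 1.5-fold lower. Their share past it in any comparison was not computed, so 1 of 8 is no result about these partners. Of the receptors for released S100 and annexin proteins, 7 were measured and 4 expressed, with 0 of the 7 past 1.5-fold in any comparison. A list of proteases set beside the clade B serpins, not all of them established targets, had 24 measured and 7 expressed members, also with 0 of the 24 past 1.5-fold. For all named genes the share past 1.5-fold in any comparison was not computed, so these counts of 0 are no result about either list.

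Other protease inhibitors were lower on the Met-ENK array in part. Of 18 measured, 8 were expressed, and their median difference from control was -0.53 for Met-ENK and -0.35 for β-END(1-9). Of these 8, 3 were at least 1.5-fold lower with Met-ENK, beside 5.81% of all expressed genes and 14.9% of those in the shortest quintile by span. They were Cst6, cystatin M/E, which restrains cathepsins in the epidermis (12.10 with Met-ENK, 12.55 with β-END(1-9) and 13.23 in control), Timp1, an inhibitor of matrix metalloproteinases (9.96 with Met-ENK, 10.25 with β-END(1-9) and 10.57 in control), and Cst3, cystatin C (10.80 with Met-ENK, 10.97 with β-END(1-9) and 11.39 in control). Their differences from control were -1.13 for Cst6, -0.61 for Timp1 and -0.59 for Cst3. Cst6 was also past it with β-END(1-9), at -0.67. There, 1.81% of all expressed genes and 2.56% of those in the shortest quintile were at least 1.5-fold lower. Cstb, cystatin B, was 0.60 lower with Met-ENK than with β-END(1-9) (10.10 with Met-ENK, 10.70 with β-END(1-9) and 10.64 in control). Between the peptides, 2.37% of all expressed genes and 6.81% of those in the shortest quintile were so. Cst6, Timp1, Cst3 and Cstb span 1.71 to 6.07 kb and lie, like the S100 genes, in the shortest quintile. Of the 10 inhibitors at or below the level, 1 was past 1.5-fold (Csta, cystatin A, at -0.60 with Met-ENK). Serpins of other clades had 20 measured members, of which 1 was expressed and was not past 1.5-fold. Of the 19 at or below the level, 7 were past it in some comparison, among them Serpina3c (1.17 with Met-ENK against control), Serpina3n (1.15 with β-END(1-9) against control) and Serpinf1 (-0.90 with β-END(1-9) against control). Of all genes at or below the level, 2.08% to 4.84% were past 1.5-fold in a given direction of a single comparison. The share past it in any of the 3 comparisons was not computed, so the 7 are no result about these serpins.

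Signalling genes upstream of antimicrobial genes in skin, of the IL-17, IL-22 and IL-1 pathways, had 29 measured and 14 expressed members. Of the expressed ones 1 was at least 1.5-fold higher with Met-ENK than in control (1 of 14, beside 0.352% of all expressed genes), the IL-17 receptor subunit Il17ra, with 10.26 with Met-ENK, 9.79 with β-END(1-9) and 9.55 in control. Stat3, a transcription factor that acts in IL-22 and IL-6 signalling, was 0.62 higher with Met-ENK than with β-END(1-9) (13.93 with Met-ENK, 13.31 with β-END(1-9) and 13.47 in control), where 1.63% of all expressed genes were past 1.5-fold higher. Of the 15 at or below the level, 5 were past 1.5-fold in some comparison (Cebpb, Il17rc, Il1b, Il36b and Tlr2). In a given direction of a single comparison 2.08% to 4.84% of all genes at or below the level were past it. Their share in any of the 3 comparisons was not computed, so the 5 are no result about this list. Partners of lipocalin 2 and cathelicidin with other antimicrobial genes had 21 measured and 4 expressed members, with 0 of the 21 past 1.5-fold in any comparison. For all named genes this share was not computed either, so the 0 is no result about these partners. Of other EF-hand and calcium-handling genes 25 were measured and 17 expressed. Of the expressed ones 1 was past 1.5-fold, lower with Met-ENK than in control, close to the 5.81% of all expressed genes that were so. It was the store-operated calcium channel Orai1 at 7.91 with Met-ENK, 8.02 with β-END(1-9) and 8.54 in control. Of the 8 at or below the level, 1 was past it, the calcium pump gene Atp2a3 (0.88 with Met-ENK and 0.60 with β-END(1-9) against control). The medians over the expressed genes of these 3 lists against control lay between -0.16 and 0.09 with both peptides.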

How the data were processed

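RNA from 3 FRSK cultures was hybridised to Affymetrix whole-transcript arrays, 1 per culture, and each sample's title gave its group. The authors deposited log2 signals, with 1 value for each probe set on each array. Affymetrix Expression Console, Transcriptome Analysis Console and RMA made them, per the submitters' processing notes. RMA is a method of background correction, normalization between arrays and summary over probes. No tool version, annotation release or genome build is given in the sources used here. Precision is limited by having 1 array per group, and no test, p-value or error was computed.

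Of 24834 probe sets, 1646 control sets were left out of gene comparisons and 23188 transcript clusters remained. The platform annotation gave 1 symbol to 15049 of these, several symbols to 0 and none to the others, and the 15049 stand for 15037 genes. All 15037 Entrez identifiers were found in the GRCr8 RefSeq table, and 0 symbols changed. A gene with several probe sets was represented by the set with the highest mean, and 0 of the 89 genes had several. Differences were subtracted log2 signals, and lists were described by counts and medians. The alternatives were other level limits, the mean of the probe sets, median centring, quantile normalization, removal of the trend along signal level (lowess, fraction 0.3), a 2-fold threshold and removal of the trend along genomic span (gene start to gene end, which stands only loosely for mRNA length). The functions were tested on simulated data. Python 3.11.15, pandas 2.3.3, numpy 2.4.6 and statsmodels 0.14.6 were used.

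The genes and lists were chosen with earlier results of these data known. The rule for named genes took every expressed member, every member at least 1.5-fold apart in some comparison, the 4 background members with the highest mean, the 3 members on either side of the level, S100a8, S100a9, Camp, Lcn2, Slpi, Serpinb2, Serpinb3a and S100a7a where measured, and expressed list genes past 1.5-fold. Serpinb3a was not analysed here, and neither were protein features, which had been planned. Other genes named (markers, further background members, list genes at or below the level and genes given for their chromosomal order) were chosen after their values were seen.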

Additional observations from a re-analysis of the deposited data

How the results depend on the processing

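No paired analysis was possible because each group has 1 array, and for the same reason no replicate could be left out. Listed are counts that changed by over 1.5 times and medians that moved by over 0.1 (log2). For Met-ENK against control, the 4 lower genes became 2 after quantile normalization and 2 with the span trend removed (S100a16 and Anxa3 in both), and 0 at 2-fold. The 0 higher genes became 3 without a level limit, where the median was 0, and 1 with the span trend removed (Defb20, 0.63). For β-END(1-9) against control, the 0 higher genes became 1 with the limit at the median of named genes, 7 without a limit, and 1 after quantile normalization or with the span trend removed (Defb18, 0.59 in both). The 0 lower genes became 1 without a limit, and the median of -0.07 became 0.0514 after quantile normalization. For Met-ENK against β-END(1-9), the 1 lower gene became 6 without a limit, 2 with the signal-level trend removed, and 0 with the limit applied to each array, at 2-fold, with the span trend removed, or without β-defensins, an alternative chosen after seeing the data. The S100 median for Met-ENK against control was -0.66, and became -0.30 with the limit at the median of named genes, 0 without a limit, -0.48 after quantile normalization and -0.52 with the span trend removed. For β-END(1-9) against control the S100 median of -0.20 became -0.04 and 0 with these limits, and that of clade B serpins (-0.14) became -0.03 without a limit and -0.04 after quantile normalization. Between the peptides the S100 median of -0.38 became 0 without a limit. Without a limit more genes are counted by construction, and the cause of the other changes was not tested. No called difference changed sign in any of these settings.

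Over all expressed genes, the deposited signals gave 22 higher and 363 lower genes for Met-ENK against control, 13 and 113 for β-END(1-9) against control, and 102 and 148 between the peptides. Without a limit the counts were 448 and 633, 397 and 296, and 377 and 459. With the limit at the median of named genes the higher counts against control were 52 for Met-ENK and 42 for β-END(1-9), and they were 55 and 31 after quantile normalization, and 43 and 27 with the span trend removed. After quantile normalization 65 genes were lower for β-END(1-9), and with the span trend removed 72. The β-END(1-9) limit at the median gave 171 lower genes, and removing the signal-level trend gave 23 higher. At 2-fold the counts were 2 and 45, 1 and 7, and 4 and 12.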
